A study of Caenorhabditis elegans with 2 samples.

Results

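The regions described here are weak UNC-3 ChIP-seq peaks whose summits lie inside protein-coding sequence (CDS). A peak was a member when it was on a nuclear chromosome of the pooled ce11 list, overlapped no peak of the authors' optimal list thresholded by the irreproducible discovery rate (IDR), and had its summit in a CDS segment of a protein-coding gene in the Ensembl annotation of WBcel235. Summits up to 500 bp before or up to 100 bp after a protein-coding transcription start site (TSS), and those within 200 bp of a tRNA, snoRNA or snRNA gene, were left out. There were 1427 such coding peaks among the 15515 peaks of the pooled list, or 9.85% of the 14484 nuclear peaks that overlapped no IDR peak (95% exact interval 9.37% to 10.3%). Below they are set beside 4939 intron peaks and 4244 distal intergenic peaks of the same list, which met the same IDR, TSS and small RNA gene conditions. Sequence of each kind that meets the TSS and small RNA gene conditions is called eligible and serves as the background for densities and shares.

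The study measured binding of UNC-3 in whole hermaphrodite late embryos of Caenorhabditis elegans, collected 4 h after synchronization by egg bleaching. Both libraries belong to a single group of strain OP578, genotype unc-119(tm4063) III; wgIs578, in which an integrated transgene makes UNC-3 tagged at its C terminus with GFP and FLAG, and the antibody was against GFP. They are labelled biological replicates 1 and 2. No second condition was analysed here, every embryo carried the unc-119 allele and the transgene, and the endogenous unc-3 gene is not named as mutated. Whole embryos were used, so a site bound in a few cells and a site bound weakly in many cells cannot be told apart.

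UNC-3 belongs to the COE (Collier/Olf/EBF) transcription factors. In the worm it specifies cholinergic motor neurons, where it activates genes of acetylcholine synthesis and release. COE factors bind DNA as dimers at a palindromic motif, mostly studied in promoters and introns. Coding exons can also hold transcription factor sites, and they differ from introns in base composition, in codon constraint and in being transcribed into mature RNA. The control library was not analysed here.

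The COE palindrome, TCCCNNGGGA on both strands, lay within 100 bp of the summit of 5 coding peaks, which are the members with the clearest link to the known UNC-3 motif. Of them 4 are shown in the WBcel235 sequence from RefSeq (ce11 coordinates), 5′ to 3′ on the coding strand of the gene, with the palindrome in capitals. They are chrV:13730365-13730434 (minus strand) in exon 3 of dct-17, chrX:17609689-17609758 (minus) in exon 2 of C16H3.3, chrIV:289004-289073 (minus) in exon 8 of T21D12.7 and chrV:20601091-20601160 (plus) in exon 2 of the collagen gene col-163. Exons are numbered among coding exons only.
dct-17: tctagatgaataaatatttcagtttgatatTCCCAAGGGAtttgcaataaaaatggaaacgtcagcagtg
C16H3.3: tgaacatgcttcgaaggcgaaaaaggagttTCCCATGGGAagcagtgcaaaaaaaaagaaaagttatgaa
T21D12.7: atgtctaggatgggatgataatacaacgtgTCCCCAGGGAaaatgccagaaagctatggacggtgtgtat
col-163: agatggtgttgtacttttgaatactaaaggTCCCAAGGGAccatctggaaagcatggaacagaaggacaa

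All 10 bases of each palindrome were coding, as were all 70 bases shown for C16H3.3, T21D12.7 and col-163 and 48 of the 70 for dct-17. The first base of the palindrome was at codon position 3 in these 4 genes and at codon position 2 in acr-6, an acetylcholine receptor subunit gene that held the fifth palindrome. Of the 60 palindromes in eligible coding sequence with a reading frame, 30 began at codon position 3, 18 at position 2 and 12 at position 1. The centre of the palindrome lay 11.5 bp from the summit in dct-17, 19.5 bp in T21D12.7, 40.5 bp in C16H3.3, 48.5 bp in acr-6 and 62.5 bp in col-163. All 5 summits were closer to a TSS than the median coding peak, at 1113 bp. The nearest TSS was 284 bp away in C16H3.3, 353 bp in acr-6 and 388 bp in dct-17. It was 931 bp away in T21D12.7 and 968 bp in col-163.

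The palindrome peaks were among the stronger coding peaks and mostly seen in a single replicate. In 4 equal groups of coding peaks from the strongest to the weakest, 3, 2, 0 and 0 held the exact palindrome, which was not tested. The dct-17 peak had a signal, the strength given by the authors' peak caller in units that the sources used here do not give, of 36.4 in the pooled list and 29.8 in replicate 2, with no replicate 1 peak. The C16H3.3 peak had 33.8 in the pooled list, 21.0 in replicate 1 and 10.8 in replicate 2. It was the only one of the 5 with a peak in both replicate lists. The T21D12.7 peak had 27.6 in the pooled list and 16.5 in replicate 1. The acr-6 peak had 25.95 pooled and 20.6 in replicate 2, and the col-163 peak had 25.5 pooled and 17.6 in replicate 2. The authors' −log10 q-value in the pooled list was low for all 5. It was 0.566 in dct-17, 0.410 in C16H3.3, 0.152 in T21D12.7, 0.111 in acr-6 and 0.101 in col-163.

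The exact palindrome was rare at coding summits and its excess over nearby sequence did not pass the test. It occurred at 5 of 1427 coding summits (0.350%, exact interval 0.114% to 0.816%), against 2 of 1427 windows 1000 bp away on a side drawn per peak (0.140%, exact McNemar p = 0.453, two-sided). Only 471 of these flanking windows were centred in coding sequence, and among those pairs the palindrome was at 1 summit and 1 flanking window. Windows 1000 bp to either side had a median GC content of 35.8%, against 39.3% at coding summits. The flanking comparison is thus mostly of coding with noncoding sequence. Of all 22041251 eligible coding positions, 0.0511% had the palindrome within 100 bp. Allowing 1 mismatch in the 8 fixed bases, 63 coding windows (4.41%) held a site, against 37 of the drawn flanking windows (2.59%, exact McNemar p = 0.0112) and 2.83% of eligible coding positions. The restriction to flanking windows in coding sequence was not made with 1 mismatch. In 4 equal groups of coding peaks from the strongest to the weakest, 29, 12, 14 and 8 windows held such a site, which was not tested. In the replicate 2 list alone the exact palindrome was at 9 of 2496 coding summits and at none of the drawn flanking windows (exact McNemar p = 0.00391), and over the 12 alternatives the p ranged from 0.00391 to 1.0. Control palindromes with the same letters in another order, CTCCNNGGAG, CCTCNNGAGG and CCCTNNAGGG, lay at 3, 1 and 0 coding summits. All p-values over peaks here treat peaks as independent, although they are sites measured in the same 2 libraries, so they do not measure spread between embryo preparations.

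Coding peaks did not pass the test for a different palindrome share from the other weak peaks. The palindrome was at 0.350% of coding summits and at 0.628% of intron summits (31 of 4939), a difference of -0.277 percentage points (95% interval -0.607 to 0.225; Fisher's exact adjusted p = 0.315). It was at 0.730% of distal intergenic summits (31 of 4244), a difference of -0.380 points (-0.745 to 0.134; Fisher's exact adjusted p = 0.255). With a TSS window from 1000 bp before to 500 bp after the start, the difference from distal intergenic peaks was -0.657 points and passed (Fisher's exact adjusted p = 0.0361), with the palindrome at 1 of 994 coding summits, while over the 10 alternatives this p ranged from 0.0361 to 1.0. With 1 mismatch allowed, the shares were 4.41% in coding, 4.49% in intron and 4.43% in distal intergenic windows.

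Counted from the sites rather than from the peaks, 6 of 62 palindromes in eligible coding sequence (9.68%, exact interval 3.63% to 19.9%) lay within 100 bp of a sub-threshold summit. The same was true of 31 of 120 intron palindromes (25.8%, 18.3% to 34.6%) and 32 of 127 distal intergenic palindromes (25.2%, 17.9% to 33.7%). Of the control palindromes, 4 of 399 in coding sequence (1.00%), 18 of 563 in introns (3.20%) and 13 of 316 in distal intergenic sequence (4.11%) lay that close. A further 2 coding, 18 intron and 12 distal intergenic COE palindromes lay near an IDR summit. These shares were not tested against each other.

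Coding sequence held fewer weak peaks per base than the other kinds of sequence, and its peaks were a little weaker. There were 64.7 coding peaks per Mb of the 22.0 Mb of eligible coding sequence, against 163 per Mb in 30.4 Mb of introns and 142 per Mb in 29.8 Mb of distal intergenic sequence. Since the rule bounded the signal, the following values are descriptive. Coding peaks had a signal between 20.1 and 59.9 with a median of 23.8, against medians of 24.6 for intron peaks and 25.1 for distal intergenic peaks. Among the 3000 strongest pooled peaks were 101 coding peaks (7.08%), against 11.4% of intron and 14.6% of distal intergenic peaks. The deposited −log10 q-value of the coding peaks had a median of 0.0697, a 95th percentile of 0.524 and a highest value of 1.87, at pals-26. A low −log10 q-value is a high q-value, so by this measure most coding peaks were not separated from background.

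**Figure D1:**
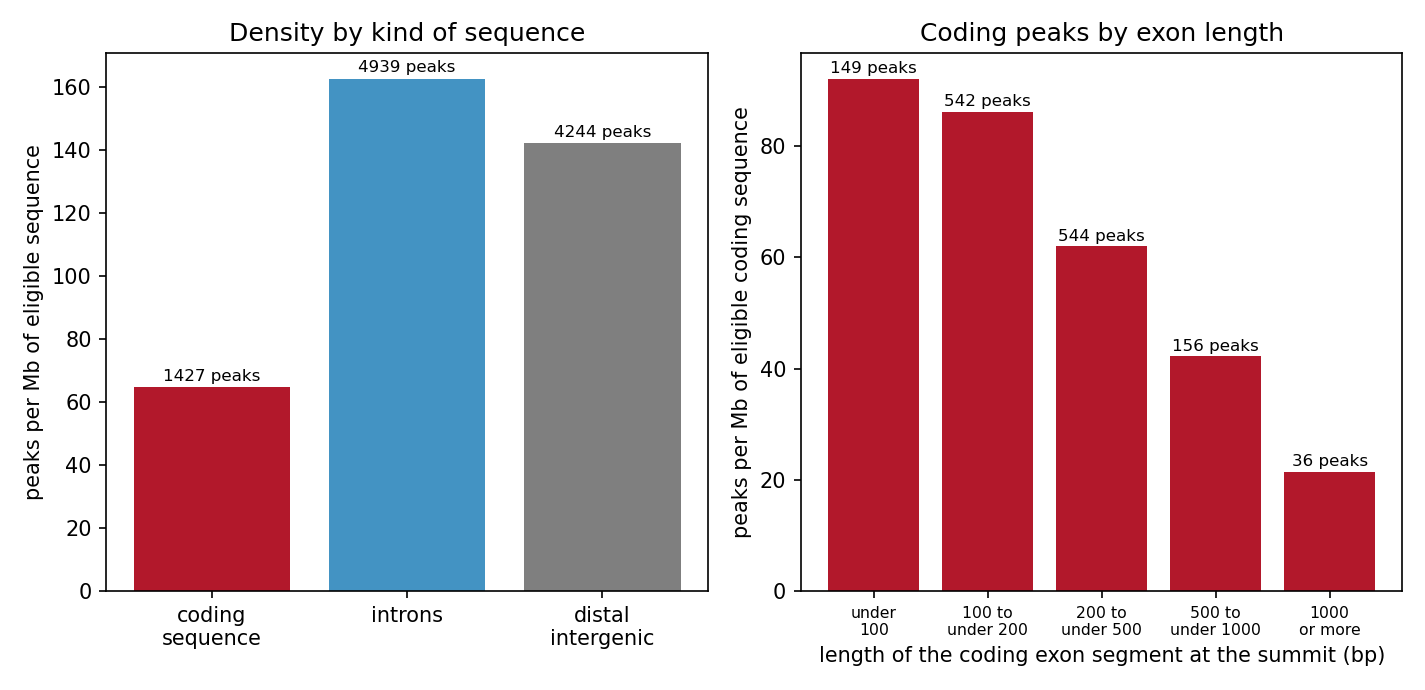
Left, sub-threshold peaks per Mb of eligible sequence (vertical axis) in coding sequence, introns and distal intergenic sequence, with the number of peaks above each bar. Right, coding peaks per Mb of eligible coding sequence by the length in bp of the coding exon segment that holds the summit; the density was 92.2 per Mb in exons under 100 bp and 21.5 per Mb in exons of 1000 bp or more.

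Short coding exons held more of these peaks per base than long ones. In exons of 500 bp or more lay 192 of the 1427 coding peaks (13.5%, exact interval 11.7% to 15.3%), against 24.3% of eligible coding length (exact binomial p = 2.17e-24, two-sided). The density was 86.2 per Mb in exons of 100 to under 200 bp, 62.0 per Mb from 200 to under 500 bp and 42.3 per Mb from 500 to under 1000 bp. The median exon at the summit was 203 bp long at coding peaks, against 266 bp over eligible coding positions. Most coding peaks therefore reached into flanking sequence. All were 480 bp wide with the summit at the midpoint, a median of 59.4% of the peak was coding (70.6% for windows of the same width at eligible positions), and 56 peaks were coding throughout.

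Summits also lay closer to exon edges than eligible coding positions did. The median distance to the edge of coding sequence was 43 bp at coding peaks, against 59 bp over eligible positions, and 55.4% of summits were within 50 bp of an edge, against 44.2% of eligible positions. First coding exons held 9.43% of the coding peaks and 6.16% of eligible length, last coding exons 18.1% and 15.1%, and internal exons 71.8% and 78.0%. Summits within 1000 bp of a TSS made up 46.5% of coding peaks, against 42.3% of eligible positions. These edge and exon values are descriptions without a test. Edge distance was not compared at matched exon length, so it cannot be told apart from the shorter exons at coding peaks.

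Along the spliced coding sequence, divided into 3 equal parts, no shift toward the 3′ end passed the test. The 3′ part held 506 of the 1410 coding peaks with a position in the longest transcript (35.9%), against 34.7% of eligible length (exact binomial p = 0.342, two-sided). With the wider TSS window the shares were 43.5% and 38.9% (exact binomial p = 0.00319), and in the replicate 1 list alone the difference was -0.0494 points (exact binomial p = 0.966), the lowest and highest p over the alternatives. The 5′ part held 32.6% of coding peaks and 29.5% of eligible length, and the middle part 31.5% and 35.9%. A further 17 summits were in coding sequence of another transcript only.

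GC content at the summits was close to that of coding sequence at large. Within 100 bp of the summit the median GC content was 39.3% at coding peaks and 39.8% over eligible coding positions. In windows 1000 bp to either side it was 35.8%. Counting coding bases only, it was 43.2% at coding peaks and 42.4% at eligible positions. Intron peaks had a median of 34.3% and distal intergenic peaks 35.3%. Across the 1427 coding peaks the Spearman correlation of GC content with signal was 0.0696, a description over peaks that share both libraries.

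**Figure D2:**
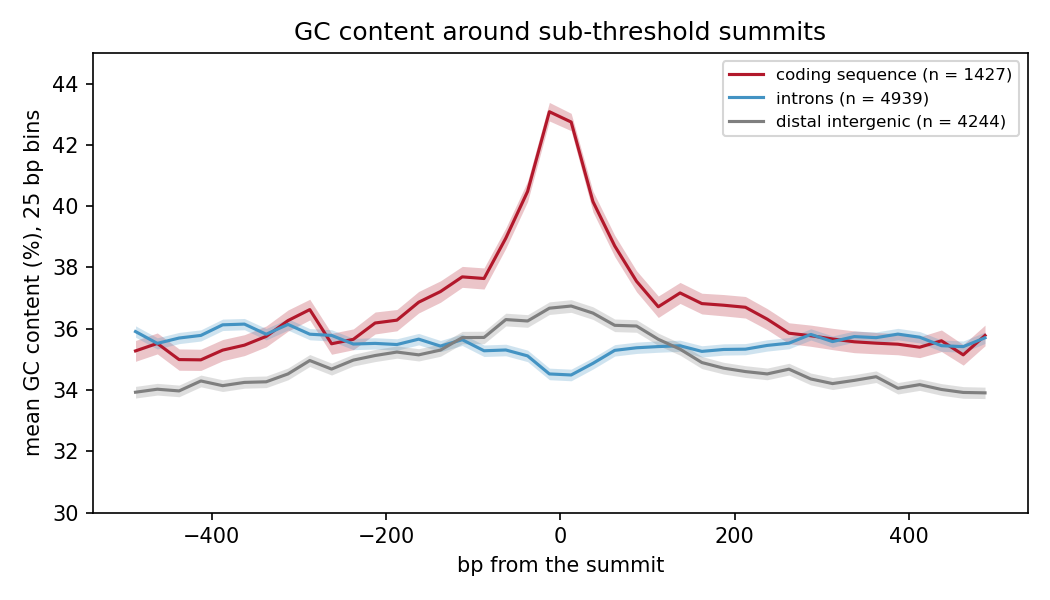
Mean GC content (vertical axis, percent, in 25 bp bins) against distance from the summit in bp for coding, intron and distal intergenic sub-threshold peaks, with shaded bands of 1 standard error over peaks. Coding peaks reached 43.1% next to the summit and 35.3% at the left end of the profile, while intron peaks were at 34.5% next to the summit.

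Summit sequence repeated elsewhere was rare in coding peaks. The 50 bases at the summit occurred more than once in the genome for 3 coding peaks (0.210%), against 60 intron peaks (1.21%) and 57 distal intergenic peaks (1.34%). The summit of 101 coding peaks was also in an intron or untranslated region of another transcript, and 2 peaks overlapped a noncoding RNA gene. Another coding peak overlapped 92 of them, in 46 pairs, and such neighbours can share the same replicate peak.

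Fewer coding peaks were found in both replicate lists than peaks of the other kinds. A peak of at least 1 bp overlap was present in both replicate lists for 521 coding peaks (36.5%, exact interval 34.0% to 39.1%). The share was 44.6% for intron peaks (2201 of 4939), a difference of -8.05 percentage points (-10.9 to -5.17; Fisher's exact adjusted p = 5.31e-08). It was 47.5% for distal intergenic peaks (2015 of 4244), a difference of -11.0 points (-13.9 to -8.03; Fisher's exact adjusted p = 8.84e-13). Replicate 1 alone had 422 coding peaks (29.6%), replicate 2 alone 430 (30.1%), and 54 (3.78%) were in neither list. The pooled list was called on the same alignments as the replicate lists, which hold 20517 and 21474 peaks with background, so overlap with them is no separate evidence that a peak is real.

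Counting only replicate summits within 100 bp of the pooled summit, the differences were -3.14 points from intron peaks and -5.08 points from distal intergenic peaks (Fisher's exact adjusted p = 0.0106 and 0.000117). Counting only the 5000 strongest peaks of each replicate list, they were -3.43 and -4.84 points. Merging overlapping peaks left 1381 coding, 4544 intron and 3833 distal intergenic peaks. The differences were then smaller, at -6.33 and -8.71 points (Fisher's exact adjusted p = 2.72e-05 and 3.58e-08).

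Replicate support went with peak strength in all 3 kinds of sequence. Among pooled ranks up to 5000, 76.2% of coding, 78.8% of intron and 80.4% of distal intergenic peaks were in both lists, and neither difference passed the test (Fisher's exact adjusted p = 0.363 and 0.297). Among ranks 5001 to 10000 the shares were 38.2%, 44.5% and 45.8% (Fisher's exact adjusted p = 0.0131 and 0.00648). Above rank 10000 they were 19.97%, 23.8% and 24.5% (Fisher's exact adjusted p = 0.0439 and 0.0387). In 4 equal groups of coding peaks from the strongest to the weakest, 68.9%, 35.9%, 24.4% and 16.8% were in both lists. The rank bands were chosen after the pooled difference was seen.

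**Figure D3:**
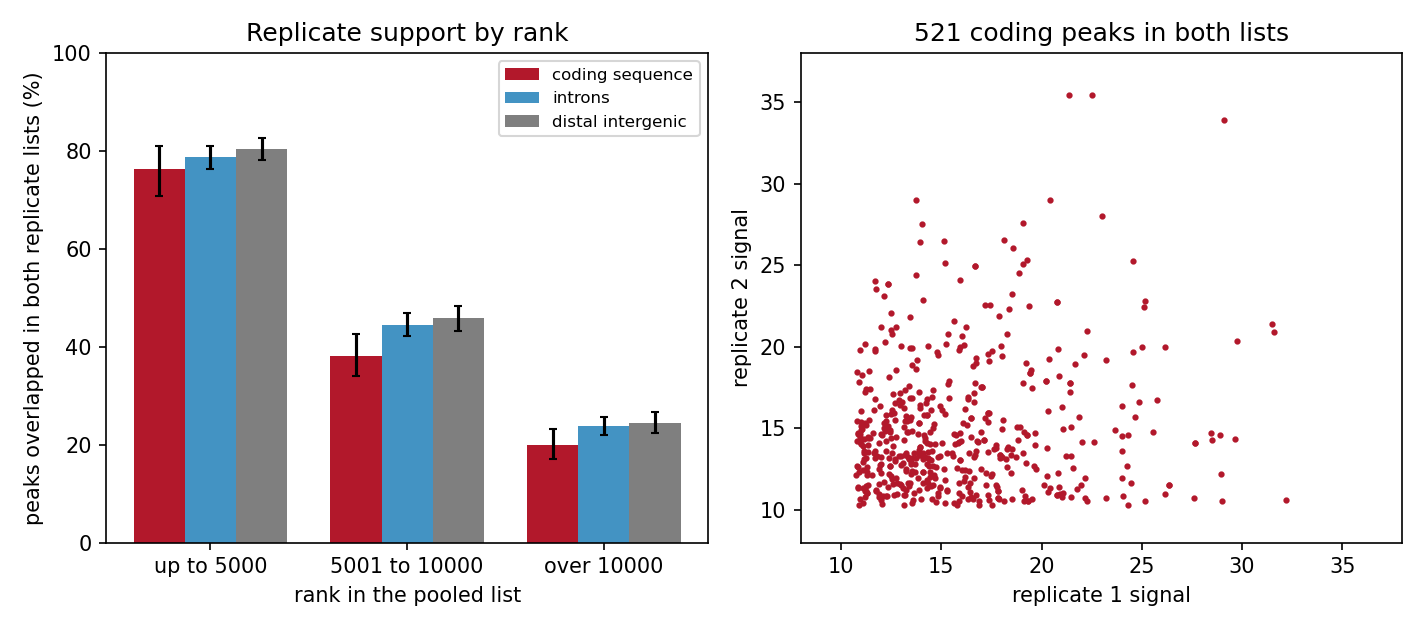
Left, percent of sub-threshold peaks overlapped in both replicate lists (vertical axis) by rank in the pooled list, for coding, intron and distal intergenic peaks, with 95% Wilson intervals. Right, replicate 2 signal against replicate 1 signal for the 521 coding peaks in both lists; the points form no line, and the Spearman correlation was 0.0595.

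The replicate signals of the coding peaks were at most weakly related. Over the 521 coding peaks in both lists Spearman's correlation of the replicate signals was 0.0595 and Pearson's on log2 values 0.11, against 0.202 and 0.24 over 2201 intron peaks and 0.189 and 0.22 over 2015 distal intergenic peaks. These are descriptions over peaks that share both libraries and that were bounded in strength by the rule. Their replicate 1 signal ranged from 10.8 to 32.2 (median 14.8) and their replicate 2 signal from 10.3 to 35.4 (median 14.1).

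The strongest coding peaks were spread over genes of varied roles. The strongest, at chrIII:4378512-4378991 in the last exon of pals-26, a member of a family known for responses to intracellular infection, had a signal of 59.9 in the pooled list, 29.1 in replicate 1 and 33.9 in replicate 2. K10B2.4 (chrII:6360492-6360971) had 56.9 pooled, 31.5 in replicate 1 and 21.4 in replicate 2. The peak in mab-20, which encodes a semaphorin, had 50.6 pooled, 20.4 in replicate 1 and 29.0 in replicate 2. Of the 20 strongest, 19 were in both replicate lists, and let-716 with 41.0 was in replicate 2 only. None of the 20 had the exact palindrome within 100 bp, and the summit sequences of 2 of the strongest are shown for comparison, chrIII:4378722-4378782 (plus) and chrII:6360702-6360762 (minus), on the coding strand, all coding and with no base in capitals because no palindrome was found.
pals-26: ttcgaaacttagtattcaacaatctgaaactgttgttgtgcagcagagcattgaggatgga
K10B2.4: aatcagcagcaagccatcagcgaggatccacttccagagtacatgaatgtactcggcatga

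Further down that list, Y18D10A.4 had a pooled signal of 54.0, ZK112.4 of 47.5 and pgp-10, an ABC transporter gene, of 46.3. The scaffold gene lin-10 had 44.6, the Paf1 complex gene cdc-73 had 44.3, R119.5 had 43.4 and the potassium channel gene twk-49 had 42.2. The mitochondrial inner membrane gene immt-2 had 41.8, the toxin antidote gene zeel-1 had 41.1 and the sestrin gene sesn-1 had 41.0. B0511.12 and the kinase gene mbk-2 had 40.7 each, F58D5.9 had 40.6, C13A2.12 and the mitochondrial chaperonin gene hsp-60 had 40.5 each, and T12D8.5 had 40.2. The hsp-60 summit lay 963 bp from an IDR summit. Only 19 of all coding summits lay within 1000 bp of one. The C13A2.12 peak with 40.5 was among the 3 coding peaks whose 50 summit bases occurred more than once in the genome.

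**Figure D4:**
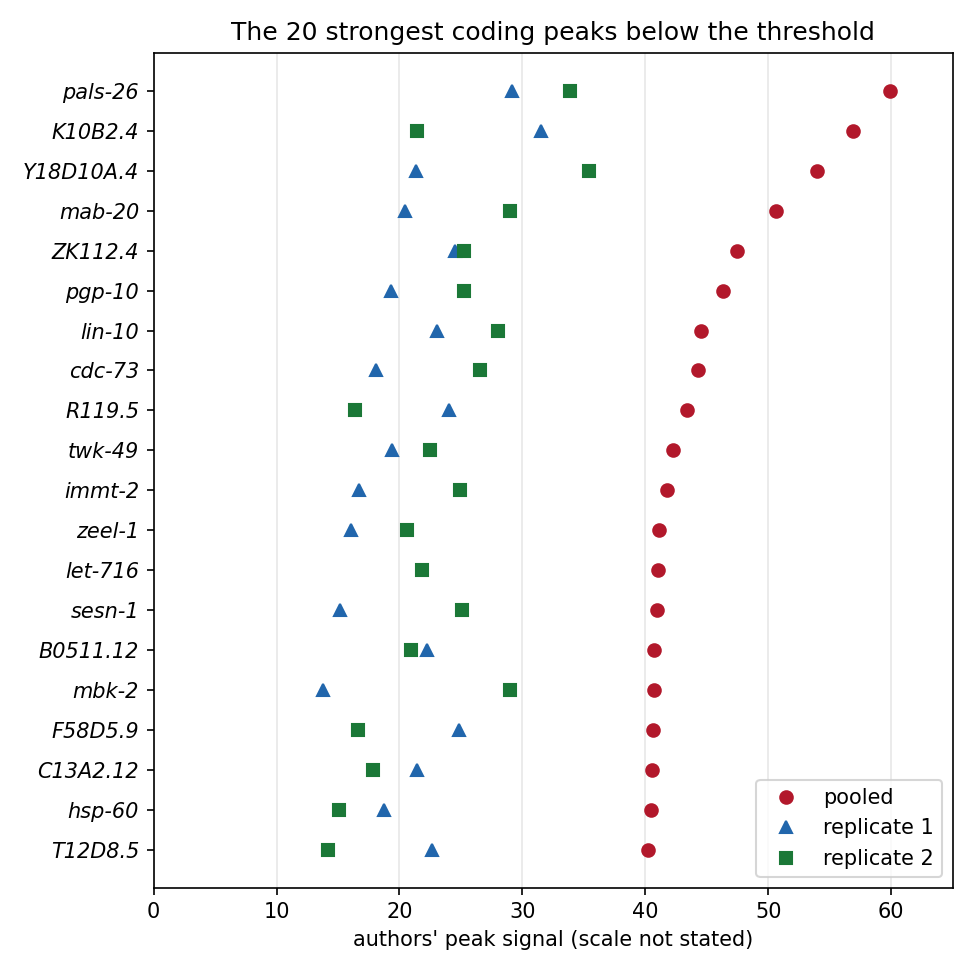
Signal given by the authors' peak caller (horizontal axis, scale not stated) for the 20 strongest coding peaks in the pooled list and in each replicate list, ordered by pooled signal. All replicate values lie below the pooled value of the same peak, and let-716 has no replicate 1 point.

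Above the threshold stood 7 IDR peaks with a summit in coding sequence under the same TSS condition, given here without a test. They were in snt-3, a synaptotagmin gene, with a signal of 120.0, mom-1 with 117.1, T04D3.8 with 99.1, pks-1 with 80.3, T07F12.2 with 70.1, rbm-34 with 61.6 and ril-2 with 60.8. The strongest coding member had 59.9, against 60.2 for the weakest IDR peak anywhere.

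By chromosome, the X held fewer coding peaks than its share of eligible coding length in the pooled list. It had 162 of 1427 (11.4%, exact interval 9.75% to 13.1%), against 14.7% of eligible coding length (exact binomial p = 0.000215, two-sided). In the replicate 2 list alone the X share was 14.1% and did not pass (exact binomial p = 0.413), and in the replicate 1 list alone the difference was -1.51 points (exact binomial p = 0.0352). Coding peaks numbered 49.9 per Mb on X, 52.7 on V, 63.2 on II, 63.5 on IV, 77.9 on I and 87.0 on III. Intron peaks also had their lowest density on X, with 126 per Mb, and their highest on III, with 194 per Mb. Distal intergenic peaks were densest on III too, with 194 per Mb, but least dense on V, with 114 per Mb, against 133 per Mb on X.

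A coding peak was present in 1305 of 19695 protein-coding genes with eligible coding sequence, or 6.63%. Of these, 1194 had 1 coding peak, 102 had 2, 7 had 3 and 2 had 4. The share of genes with a coding peak went with coding length, at 2.06%, 4.24%, 5.48%, 7.64% and 13.7% over 5 equal groups of genes from the shortest to the longest, while the density was 91.3 per Mb in the shortest group and 58.5 per Mb in the longest. A pooled peak of any kind in the TSS window of the same gene was present in 23.1% of genes with a coding peak (302 of 1305, exact interval 20.9% to 25.5%) and in 17.4% of eligible genes without one (3201 of 18390, 16.9% to 17.96%), which was not tested.

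The genes with 4 coding peaks were smg-6, which encodes a nuclease of nonsense-mediated RNA decay, and Y53G8AL.1. In smg-6 the pooled signals were 37.5, 34.6, 26.9 and 24.99, and the first and the last of these overlapped and shared replicate signals of 26.3 in replicate 1 and 11.5 in replicate 2. In Y53G8AL.1 they were 32.2, 24.4, 21.7 and 21.1, and 2 of the 4 were in neither replicate list. The peaks with 32.2 and 21.7 overlapped and shared a replicate 1 signal of 23.7, with no replicate 2 peak. Genes with 3 were rep-1, a Rab escort protein gene with signals of 36.8, 30.04 and 28.7 that were all in both lists, the autophagy gene atg-2 (strongest 34.8), the spectraplakin gene vab-10 (32.5), Y54G2A.11 (26.9), mig-38 (25.4), the transmembrane collagen gene col-99 (24.5) and the glycogen debranching enzyme gene agl-1 (22.1). In each of mig-38, col-99 and agl-1, 2 of the 3 peaks overlapped and shared their replicate signal.

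Gene lists are described by their counts beside the 6.63% over all eligible genes, with no test. Among genes tied to UNC-3 in motor neurons, 1 of 7 cholinergic transmission genes had a coding peak, the choline acetyltransferase gene cha-1 with 27.5 in the pooled list, 19.9 in replicate 2 and no replicate 1 peak. Its summit lay in a first coding exon of 51 bp, and 10.6% of the peak was coding, against a median of 59.4% over coding peaks. Of 28 listed acetylcholine receptor genes 3 had one, acr-19 with 24.4, acr-3 with 23.7 and acr-12 with 22.7. The receptor gene acr-6, which held a palindrome, was not in that list. Of 20 motor neuron regulators 3 had one, the ARID factor gene cfi-1 with 27.7 and 24.9, the homeobox gene vab-7 with 22.8 and the Hox gene lin-39 with 21.7. Both cfi-1 peaks and the acr-12 peak were in both replicate lists, the lin-39 peak was in replicate 2 only, the acr-19 and acr-3 peaks were in replicate 1 only, and the vab-7 peak was in neither. The 2 cfi-1 peaks overlapped and shared replicate signals of 19.3 in replicate 1 and 10.6 in replicate 2. Of 29 panneuronal and synaptic genes 5 had one: cla-1 with 31.3, ric-19 with 26.4, syd-2 with 23.2, unc-11 with 21.1 and unc-104 with 20.1. The median eligible coding length was 1847 bp in the cholinergic, 1517.5 bp in the receptor and 1955 bp in the panneuronal list, against 878 bp over all eligible genes. Their densities were 79.6, 71.2 and 58.1 coding peaks per Mb, against 64.7 over all.

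The highest shares were in the extracellular matrix and chromatin lists. Of 31 chromatin and transcription genes 8 had a coding peak (25.8%), among them the cohesin gene smc-3 with 36.9, chd-7 with 27.1, the acetyltransferase gene cbp-1 with 25.9 and the Rb-like gene lin-35 with 24.4. Of 23 extracellular matrix genes 6 had one (26.1%), among them the perlecan gene unc-52 with 40.0, the integrin gene ina-1 with 24.97, the collagen IV gene let-2 with 24.7 and ost-1 with 23.1. The median eligible coding length was 3534 bp in the chromatin list and 4851 bp in the matrix list, against 878 bp over all eligible genes, and their densities were 96.2 and 47.0 coding peaks per Mb, against 64.7 over all. The highest densities were those of the motor neuron regulators (216 per Mb), the histones (192 per Mb), the patterning regulators (136 per Mb) and the epidermis list (110 per Mb), which rest on 4, 2, 6 and 11 coding peaks. These are not all separate sites. The 2 cfi-1 peaks of the motor neuron list overlapped each other, as did the 2 of dpy-13 and the 2 of dpy-17 in the epidermis list. Of 30 epidermis genes 6 had one (20%), among them vab-19 with 37.8, vab-10 with 32.5 and the cuticle collagen genes dpy-13 with 31.4 and dpy-17 with 30.8.

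The other lists had shares both below and above the 6.63% over all genes. Of 67 eligible cytosolic ribosomal protein genes 1 had a coding peak, rpl-17 with 21.1, and their median eligible length was 303 bp. Of 70 histone genes 2 had one, the linker histone gene his-24 with 34.4 and the H4 gene his-1 with 24.98, in 10.4 kb of eligible sequence. Of 164 listed collagen genes 7 had one (4.27%), led by col-153 with 29.5, col-74 with 27.5, col-163 and col-99. The collagen genes dpy-13, dpy-17 and let-2, which also had coding peaks, were not in this list. They were counted in the epidermis and matrix lists. Of 21 chaperone genes 2 had a coding peak in the pooled list, hsp-60 and the Hsc70 gene hsp-1 with 29.5. Their summits lay 963 bp and 752 bp from an IDR summit. In the replicate 2 list alone 9 chaperone genes had one, and in the replicate 1 list alone 7. Over all eligible genes those lists gave 11.3% each. The pharynx (12 genes) and germline (23 genes) lists had none in the pooled list, which allows shares of up to 26.5% and 14.8% (exact interval). In the replicate 2 list alone 2 pharynx and 2 germline genes had one, and in the replicate 1 list alone 2 pharynx genes and no germline gene. Collagens had 15 of 164 (9.15%) in the replicate 2 list alone and 7 in the replicate 1 list alone. Body wall muscle had 3 of 28 (unc-52, the tropomyosin gene lev-11 with 26.8 and the ryanodine receptor gene unc-68 with 20.7), intestine 1 of 18 (hizr-1 with 21.9), translation factors 2 of 24 (ifg-1 with 23.4 and eef-1B.2 with 21.2), the cytoskeleton 4 of 26 (vab-10, che-3 with 23.6, ifa-1 with 23.6 and nmy-1 with 21.4) and patterning regulators 5 of 31 (led by the Wnt ligand gene mom-2 with 24.8, lag-1 with 24.6, lin-44 with 23.7 and the cadherin gene hmr-1 with 23.4).

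**Figure D5:**
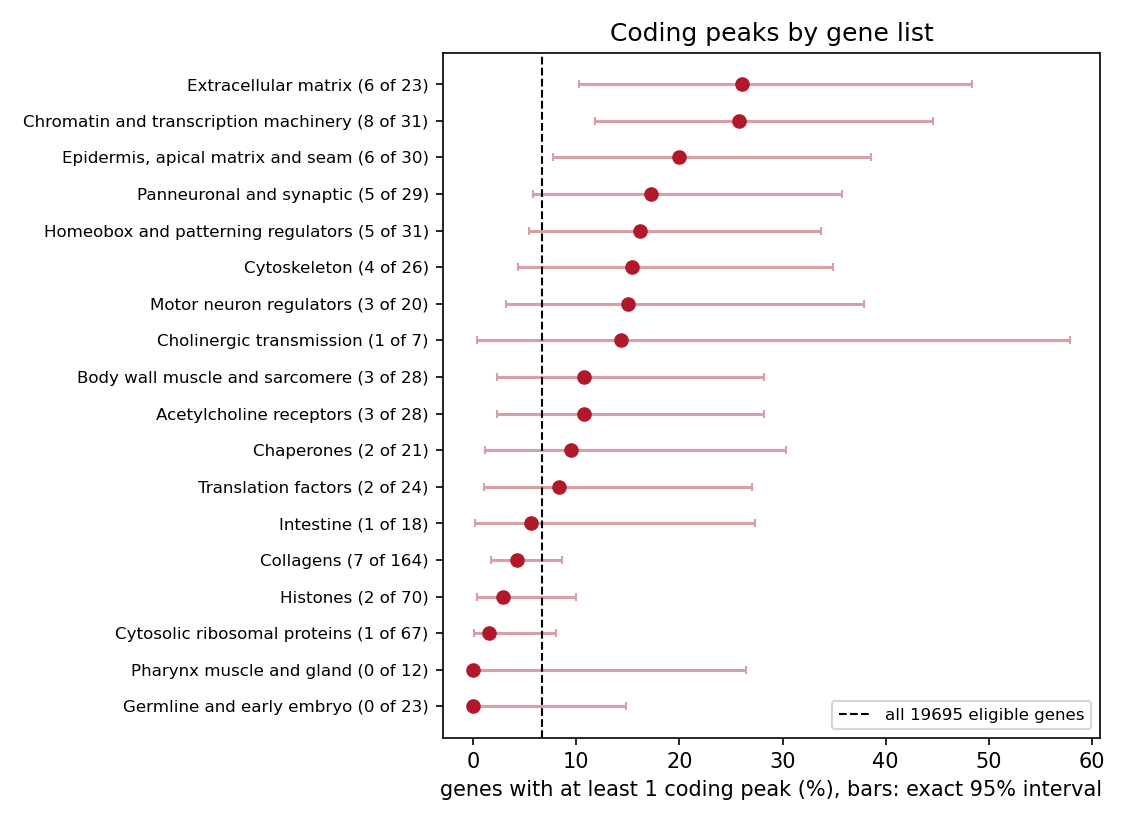
Percent of the eligible genes of each list with at least 1 coding peak (horizontal axis), with exact 95% intervals and the counts beside each name; the dashed line marks 6.63%, the share over all 19695 eligible genes. Extracellular matrix and chromatin lists lie farthest to the right, and the pharynx and germline lists are at 0 in the pooled list.

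Neither unc-119, the gene mutated in the strain, nor unc-3, the gene copied in the transgene, held a coding peak. There was also none within 50 kb of unc-3, a window with 23.8 kb of eligible coding sequence, while the density over all eligible coding sequence was 64.7 per Mb. At that density a window this short would hold few coding peaks, and the count was not tested. In unc-119 there were 4 pooled peaks, 3 in introns and 1 in a TSS window, and within 50 kb, in 23.9 kb of eligible coding sequence, lay the coding peaks of rle-1 with 27.5, vab-7 with 22.8 and cey-4 with 22.8.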

How the data were processed

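Peak lists from 2 ChIP-seq libraries were used as deposited. Per the file headers and notes deposited with the lists, the authors called each replicate list and the pooled list with a control alignment, background included, as IDR input. The signal and the −log10 q-value of each peak are the authors'; the sources used here do not give aligner, caller, IDR threshold or depth. The control alignment and ce10 lists were not used here. Peaks were classed in ce11 with the Ensembl annotation of WBcel235 and 29316 TSS positions on nuclear chromosomes. Eligible sequence is each class's bases outside the TSS windows and over 200 bp from small RNA genes. Intervals of single shares are exact (Clopper-Pearson, 95%), except the Wilson intervals drawn for replicate support by rank. Intervals of differences were built from the Wilson intervals of the 2 shares (Newcombe, 95%). All cover counting error only. Fisher's exact p-values were Benjamini-Hochberg adjusted over 2 comparisons. The members, tests and 18 gene lists were chosen with earlier results of these data known, and the collagen list was corrected after its values were seen. Genes are named by a rule: the 20 strongest peaks, the 10 genes with most peaks, palindrome peaks, up to 4 genes per list, and unc-3 and unc-119 with neighbours within 50 kb; genes beyond it were chosen after their values were seen. The search and tests were tested on simulated data (Python 3.11.15, scipy 1.17.1).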

Additional observations from a re-analysis of the deposited data

How the results depend on the processing

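Of 139 alternative values, 117 kept direction and side of the threshold or stayed within the counting error. The exceptions among the main results follow, and the cause was not tested. Each replicate list alone (replicate 1 or 2 left out) gave 2457 to 2496 coding peaks and 2226 to 2233 genes, sharing 740 and 751 genes with the pooled list. Keeping the stronger 50% of the peaks gave 714 peaks and 670 genes by construction. The palindrome excess over flanks was 0.122 to 0.361 points with a replicate left out (exact McNemar p = 0.00391 without replicate 1) and 1.82 points with 1 mismatch. The X difference was -1.51 to -0.600 points with a replicate left out. The difference in the 3′ part of the coding sequence was -0.0494 points without replicate 2, 0.416 points without replicate 1 and 4.63 points with the wider TSS window, where the palindrome difference from distal intergenic peaks was -0.657 points. Among ranks up to 5000 the differences in replicate support were -2.55 points from intron and -4.18 points from distal intergenic peaks. The lower share in exons of 500 bp or more kept its direction and passed under every alternative. Of 54 gene list values, 8 moved beyond counting error. No paired analysis was possible because there is a single group. Peaks, not embryo preparations, are the units of every test, and read depth is unknown.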
